A study of Homo sapiens with 16 samples.

Results

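The genes described here are 9 genes with which human cells detect viral or misplaced nucleic acid and switch on interferons. They are the RNA sensors IFIH1, DHX58 and TLR3, the adaptor MAVS, the kinase TBK1 and the interferon regulatory factors IRF1, IRF3, IRF7 and IRF9. They were taken by name from a table of 60448 gene identifiers measured in 16 RNA-seq libraries of human lung adenocarcinoma cells. Each of the 9 has 1 row in that table, and all 9 passed the filter on low values used for testing.

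Double-stranded RNA in the cytosol is bound by IFIH1 (MDA5) and by its relative RIG-I (gene DDX58), which signal through MAVS on the outer mitochondrial membrane. TLR3 does the same task in endosomes, and TBK1 then phosphorylates IRF3 and IRF7, which enter the nucleus and start transcription of interferon genes. Secreted interferon acts back on cells through JAK kinases and a complex that holds STAT2 and IRF9, which binds the interferon-stimulated response element (ISRE) and raises many genes, several of the sensors among them. The GAS element is the other interferon-related motif looked for here.

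The tested cells were the cisplatin-resistant line A549/cDDP and its parent A549, an established lung adenocarcinoma line. Cultures of 35000 cells received cisplatin, a DNA crosslinking drug, at a labelled 15 mM for 24 h, or its solvent, and the labels also put 15 mM cisplatin in the medium in which A549/cDDP was kept. The unit is printed as labelled. A549/cDDP cells were in addition transfected by lipofection with a gapmer (12 pmol), a chimeric antisense DNA that leads RNase H to its target RNA, and collected 48 h later, with cisplatin or solvent for the last 24 h. The gapmer was directed at the long noncoding RNA SCAT7 or was a control gapmer. This gives 8 groups of 2 libraries. They are A549/cDDP with SCAT7 gapmer, A549/cDDP with control gapmer, A549/cDDP without transfection and A549 without transfection, each in cisplatin and in solvent. A single gapmer was used against SCAT7, no group received the transfection reagent alone, and effects of reagent and oligonucleotide therefore cannot be told apart. Nothing in the labels says that replicates came from separate cultures, and p-values then reflect only how far these libraries differ, which may be technical.

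The values are FPKM, fragments scaled to the length of the gene and to each library's total. Depth recovered from low values ran from 31350000 to 43140000 fragments per library, with 31350000 to 33400000 for the SCAT7 gapmer and 42300000 to 43140000 for the control gapmer. The RNA of SCAT7 (gene ELF3-AS1) stood at 0.594 and 0.837 FPKM with the SCAT7 gapmer in solvent, against 2.56 and 3.57 FPKM with the control gapmer. In cisplatin it stood at 1.69 and 2.18 FPKM with the SCAT7 gapmer, against 3.73 and 3.23 FPKM with the control gapmer, a smaller difference. The 6 epithelial markers summed to between 5200 and 8430 FPKM per library, led by keratins, while EPCAM was only 0.979 FPKM on average in A549/cDDP in solvent and 3.48 FPKM in A549 in solvent. Markers of leukocytes, endothelium and fibroblasts, other than COL1A1, summed to at most 1.74 FPKM, with PTPRC, CD3E, PECAM1 and VWF at 0.235 FPKM or less. COL1A1 averaged 38.3 FPKM in A549/cDDP in solvent and 9.6 FPKM in A549 in solvent. In bulk RNA, a larger share of responding cells and more RNA per cell cannot be told apart.

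Replicates of 3 of the 4 transfected groups differed along the interferon response, and this bears on every comparison with the SCAT7 gapmer. With the SCAT7 gapmer, replicate 1 was above replicate 2 for all 25 interferon-stimulated genes tested, by a median of 0.36 on the log2 scale in solvent and 0.46 in cisplatin. With the control gapmer in solvent, replicate 2 was above replicate 1 for all 25, by a median of 0.37, while over all genes these medians lay between 0.00 and 0.02. With the control gapmer in cisplatin the median was -0.02, with replicate 1 the higher for 8 of the 25. Among the 9 genes, replicate 1 was the higher library for 8 with the SCAT7 gapmer in solvent and for 7 in cisplatin, and replicate 2 for 8 with the control gapmer in solvent. MAVS, TBK1 and IRF3 differed between replicates by at most 0.16 in any group.

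**Figure D1:**
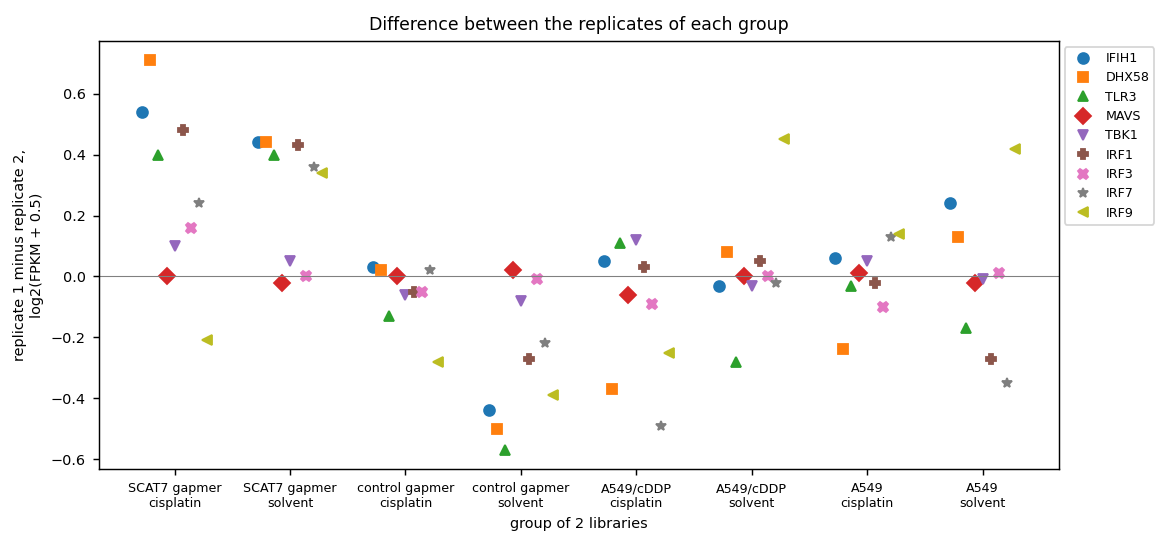
Difference between replicate 1 and replicate 2 on the scale log2(FPKM + 0.5) in each of the 8 groups, with 1 point for each of the 9 genes. In the SCAT7 gapmer groups IFIH1, DHX58, TLR3 and IRF1 lie at 0.40 to 0.71 and in the control gapmer group in solvent at -0.57 to -0.27, while MAVS stays within 0.06 of 0 throughout.

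Promoter sequence is shown for 4 genes whose RNA rose after transfection and whose promoter holds an interferon-related or NF-kB motif, since these are the letters that the JAK-STAT and NF-kB arms of the pathway are known to read. The RefSeq table (build GRCh38.p14) held a window of 250 bases before to 50 after the start site for 6 of the 9 genes, IFIH1, TLR3, MAVS, TBK1, IRF1 and IRF9. DHX58, IRF3 and IRF7 were not matched. Each line gives a stretch 5′ to 3′ on the gene's own strand, with motif matches in capitals. They are the ISRE match of IFIH1 (chr2:162318685-162318744, minus strand), the ISRE match at the start of TLR3 (chr4:186069096-186069161, plus strand, matched on the opposite strand), the GAS and the NF-kB consensus match of IRF1 (chr5:132490804-132490923, minus strand) and the GAS match of IRF9 (chr14:24161175-24161234, plus strand).
IFIH1: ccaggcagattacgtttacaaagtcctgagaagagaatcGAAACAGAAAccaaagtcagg
TLR3: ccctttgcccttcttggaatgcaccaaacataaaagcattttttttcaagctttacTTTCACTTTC
IRF1: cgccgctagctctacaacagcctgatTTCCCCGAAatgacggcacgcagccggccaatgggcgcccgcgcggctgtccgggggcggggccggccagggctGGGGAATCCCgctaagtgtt
IRF9: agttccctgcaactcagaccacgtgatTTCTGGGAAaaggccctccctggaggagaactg

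The motifs searched on both strands were ISRE as GAAANNGAAA, GAS as TTCNNNGAA and the NF-kB consensus. Of 34943 promoters of the same length, 3.57% held this ISRE, 7.66% this GAS and 11.3% the NF-kB consensus. IFIH1 held 3 ISRE matches, starting at -159, -153 and -21 from the start site (the first 2 overlap), and an NF-kB match at -76. TLR3 held GAS matches at -178 and -50, of which the second lies in the printed stretch in lower case, and the ISRE match at -4. The MAVS and TBK1 windows held none of these letters. Start sites here are those of RefSeq and differ from the ends of the gene spans given below. The printed IRF9 stretch lies wholly inside its span, which begins at chr14:24161053, and those of IFIH1 and TLR3 reach into their spans. The ISRE match of TLR3 lies inside its span, which begins at chr4:186069152. A match describes letters and shows no binding.

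IFIH1 (ENSG00000115267, chr2:162267079-162318703, minus strand, hg38) encodes MDA5, the helicase that binds long double-stranded RNA. It stood at 149 and 102 FPKM with the SCAT7 gapmer in cisplatin and at 180 and 132 FPKM in solvent. It stood at 75.8 and 74 FPKM with the control gapmer in cisplatin and at 77.2 and 105 FPKM in solvent. The libraries of each SCAT7 gapmer group lay above those of the control gapmer group with the same drug or solvent, and all 8 transfected libraries lay above all others. Without transfection A549/cDDP held 9.51 and 9.19 FPKM in cisplatin and 9.07 and 9.27 FPKM in solvent, and A549 held 2.47 and 2.35 FPKM in cisplatin and 1.36 and 1.08 FPKM in solvent. From its lowest to its highest library IFIH1 spanned 167-fold, the widest range of the 9 genes. Its order was thus SCAT7 gapmer, control gapmer, A549/cDDP, A549 in cisplatin and A549 in solvent, and cisplatin and solvent overlapped within the SCAT7 gapmer and within untransfected A549/cDDP. The lower SCAT7 gapmer library in cisplatin (102 FPKM) also lay within the range of the control gapmer in solvent.

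DHX58 (ENSG00000108771, chr17:42101404-42112733, minus strand) encodes LGP2, a relative of MDA5 without the signalling domains, which modulates it. It followed the same order at lower levels, with 19.7 and 11.8 FPKM with the SCAT7 gapmer in cisplatin and 21.5 and 15.7 FPKM in solvent, against 8.23 and 8.1 FPKM with the control gapmer in cisplatin and 7.77 and 11.2 FPKM in solvent. Untransfected A549/cDDP held 0.899 and 1.31 FPKM in cisplatin and 1.33 and 1.23 FPKM in solvent, and A549 0.418 and 0.587 FPKM in cisplatin and 0.197 and 0.137 FPKM in solvent. The DHX58 values of A549 in solvent rest on about 28 and 18 fragments, so differences from that group are the least precise of the set.

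TLR3 (ENSG00000164342, chr4:186069152-186088069, plus strand) encodes the endosomal receptor for double-stranded RNA. It stood at 14.4 and 10.8 FPKM with the SCAT7 gapmer in cisplatin and 15.3 and 11.5 FPKM in solvent, against 7.31 and 8.06 FPKM with the control gapmer in cisplatin and 6.95 and 10.5 FPKM in solvent. In untransfected A549/cDDP it held 3.57 and 3.28 FPKM in cisplatin and 3.05 and 3.81 FPKM in solvent. In A549 it held 3.91 and 4.01 FPKM in cisplatin, against 0.523 and 0.653 FPKM in solvent. A549 in cisplatin therefore lay just above untransfected A549/cDDP, and A549 in solvent stood alone at the bottom.

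MAVS (ENSG00000088888, chr20:3846799-3876123, plus strand), the mitochondrial adaptor of both cytosolic sensors, was narrow in range. Its lowest libraries were those of the control gapmer, at 15.9 and 16 FPKM in cisplatin and 16.1 and 15.8 FPKM in solvent, with the SCAT7 gapmer at 18.8 and 18.9 FPKM in cisplatin and 18.3 and 18.5 FPKM in solvent. Untransfected A549/cDDP was highest, at 21.7 and 22.5 FPKM in cisplatin and 22.9 and 22.8 FPKM in solvent. A549 lay between, at 19.8 and 19.7 FPKM in cisplatin and 19.1 and 19.4 FPKM in solvent. The whole range of MAVS was 1.45-fold, and only the control gapmer groups in cisplatin and solvent overlapped among neighbours in its order.

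TBK1 (ENSG00000183735, chr12:64451880-64502108, plus strand), the kinase that activates IRF3 and IRF7, was highest in A549 in cisplatin, at 101 and 97.8 FPKM, against 61.3 and 61.6 FPKM in A549 in solvent, the lowest group. With the SCAT7 gapmer it held 85.6 and 79.6 FPKM in cisplatin and 86.8 and 83.6 FPKM in solvent. The control gapmer (66.1 and 69.1 FPKM in cisplatin, 65.9 and 69.9 FPKM in solvent) and untransfected A549/cDDP (70.8 and 65.1 FPKM in cisplatin, 67.6 and 69.3 FPKM in solvent) overlapped throughout. An antisense gene, AC135279.3, covers 14.7% of the TBK1 exon length and was at most 0.645 FPKM.

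IRF1 (ENSG00000125347, chr5:132481609-132490798, minus strand) is a factor induced by interferon gamma and NF-kB. It stood at 121 and 86.5 FPKM with the SCAT7 gapmer in cisplatin and 138 and 103 FPKM in solvent, against 50.3 and 52.1 FPKM with the control gapmer in cisplatin and 45.3 and 54.7 FPKM in solvent. Untransfected A549/cDDP held 23.2 and 22.7 FPKM in cisplatin and 24.8 and 23.9 FPKM in solvent. A549 held 41.8 and 42.4 FPKM in cisplatin, against 10.3 and 12.6 FPKM in solvent. The groups of cisplatin and solvent overlapped with either gapmer. They stood apart in A549, where cisplatin was higher, and by less in untransfected A549/cDDP, where cisplatin was lower. The gene C5orf56 on the opposite strand covers 22% of the IRF1 exon length and AC116366.3 another 6.01%. Whether the counting used strand is not given, and reads of IRF1 cannot be told from theirs in these stretches.

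IRF3 (ENSG00000126456, chr19:49659569-49665875, minus strand), the factor that TBK1 activates first, was nearly level, with a range of 1.42-fold over the 16 libraries. Its highest group was A549 in cisplatin, at 93.8 and 101 FPKM, against 84.4 and 83.9 FPKM in A549 in solvent. Every A549/cDDP library held less, from 71 FPKM with the SCAT7 gapmer in solvent to 81.4 FPKM with the SCAT7 gapmer in cisplatin. BCL2L12 on the opposite strand covers 19.3% of the IRF3 exon length and moved differently from IRF3. In A549 it averaged 19 FPKM in cisplatin and 41.8 FPKM in solvent.

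IRF7 (ENSG00000185507, chr11:612553-615999, minus strand), the factor that amplifies interferon genes once it has itself been induced, split the libraries by transfection. It held 64.4 and 54.4 FPKM with the SCAT7 gapmer in cisplatin and 81.3 and 63.2 FPKM in solvent, against 51.5 and 50.7 FPKM with the control gapmer in cisplatin and 53.5 and 62.5 FPKM in solvent. Untransfected A549/cDDP held 3.8 and 5.52 FPKM in cisplatin and 3.49 and 3.55 FPKM in solvent, and A549 3.95 and 3.57 FPKM in cisplatin and 1.61 and 2.19 FPKM in solvent. The SCAT7 gapmer group in cisplatin overlapped the control gapmer group in solvent.

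IRF9 (ENSG00000213928, chr14:24161053-24166565, plus strand) encodes the DNA-binding subunit of a complex with STAT2 and was the lowest gene of the set on average, at 2.63 FPKM. Its highest groups were those of the control gapmer, with 3.83 and 4.76 FPKM in cisplatin and 4.06 and 5.46 FPKM in solvent, and not those of the SCAT7 gapmer, with 2.67 and 3.17 FPKM in cisplatin and 4.37 and 3.35 FPKM in solvent. Untransfected A549/cDDP held 1.18 and 1.5 FPKM in cisplatin and 1.9 and 1.26 FPKM in solvent, and A549 1.27 and 1.1 FPKM in cisplatin and 1.33 and 0.868 FPKM in solvent. These untransfected groups overlapped. The gene AL136295.5 covers 48.4% of the IRF9 exon length on the same strand and was at most 1.03 FPKM, so the IRF9 values are uncertain where reads are shared.

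**Figure D2:**
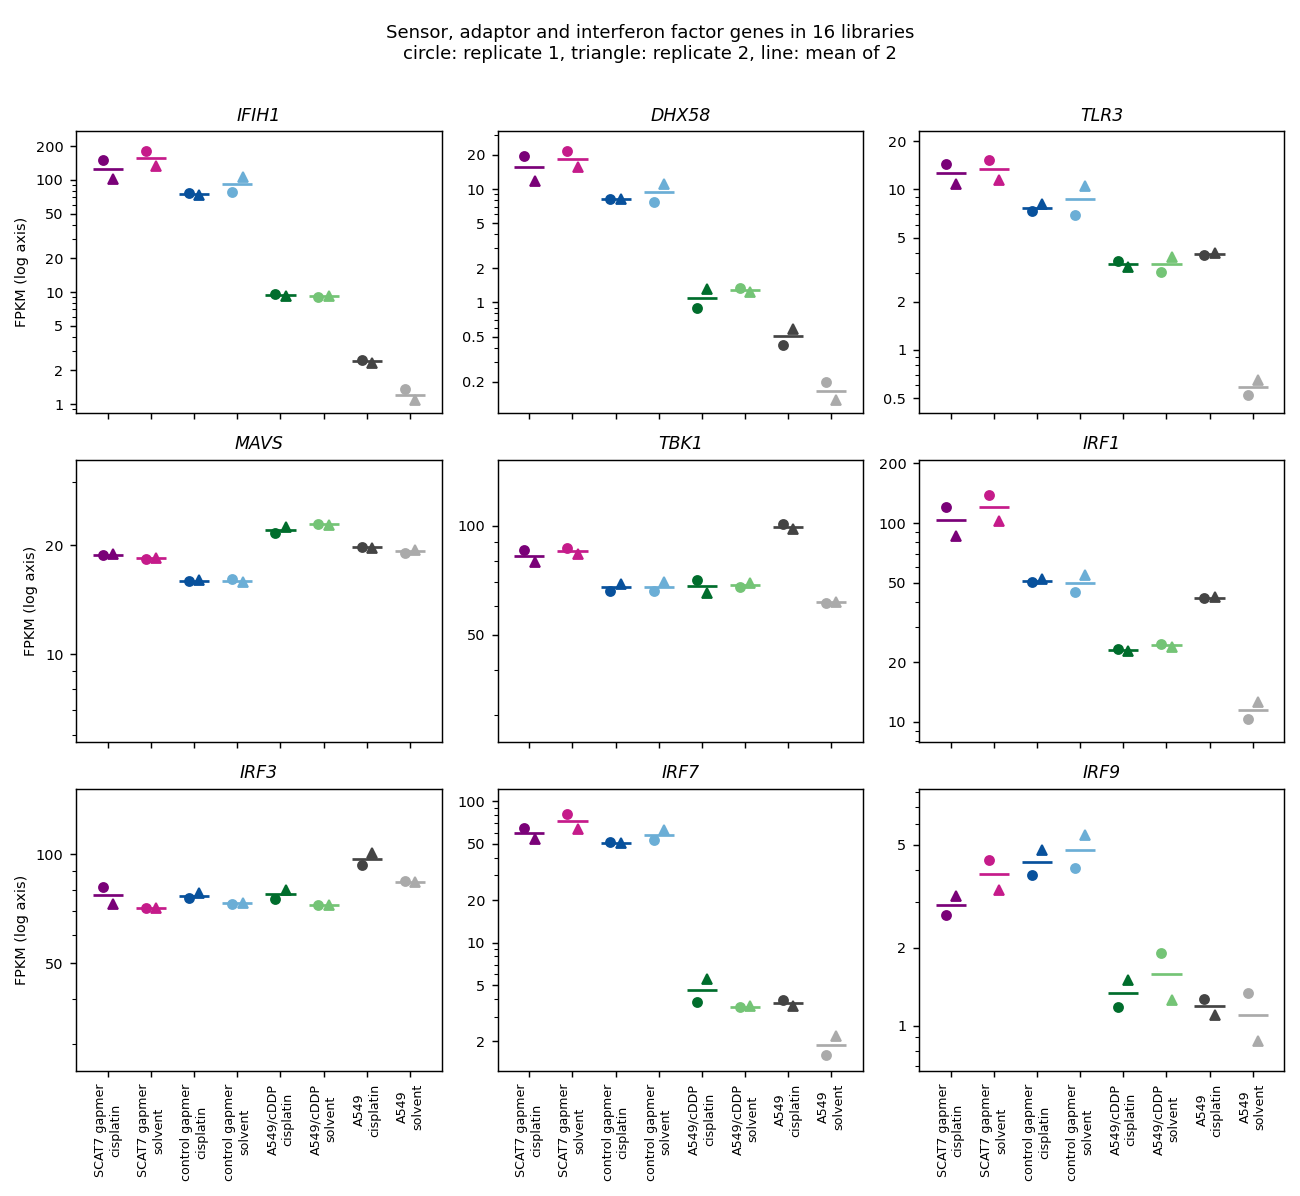
FPKM on a log axis of each of the 9 genes in the 16 libraries, 1 panel per gene, with a circle for replicate 1, a triangle for replicate 2 and a line at the mean of the 2 libraries in each of the 8 groups. IFIH1, DHX58 and IRF7 step up between untransfected and transfected cells, TLR3 and IRF1 also step up with cisplatin in A549, and MAVS, TBK1 and IRF3 lie within a 1.65-fold range.

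All tests below come from 1 limma fit over the 8 groups on the scale log2(FPKM + 0.5), with p-values adjusted over 17198 genes and a threshold of 0.05. A log2 change is on that scale, where low genes change by less than their ratio of mean FPKM, and is given with its SE. Fold is the ratio of mean FPKM between groups, n = 2 libraries each.

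The control gapmer against no transfection, both in A549/cDDP in solvent, compares cells transfected with a control oligonucleotide with cells not transfected. Handling and time in culture may also have differed between them and cannot be told apart from transfection. IRF7 rose 16.5-fold, IFIH1 9.93-fold, DHX58 7.43-fold, IRF9 3.02-fold, TLR3 2.55-fold and IRF1 2.05-fold, while MAVS fell and TBK1 and IRF3 did not pass. Thus 6 of the 9 genes rose and 1 fell, where 20.7% of all tested genes rose and 19% fell. The median log2 change of the 9 was 1.21, against -0.01 over all tested genes.

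Among the sensors, IFIH1 averaged 91 ± 19.6 FPKM with the control gapmer and 9.17 ± 0.143 FPKM without transfection (SD, n = 2 each), a log2 change of 3.23 ± 0.18 (limma adjusted p = 8.99e-08). DHX58 changed by 2.47 ± 0.23 (limma adjusted p = 5.73e-06) and TLR3 by 1.21 ± 0.19 (limma adjusted p = 0.000306). The adaptor MAVS fell by 0.51 on the log2 scale, to 0.698 of its level without transfection (limma adjusted p = 6.22e-07). For the kinase TBK1 the change was -0.01 with a 95% interval of -0.12 to 0.10, and for IRF3 0.02 with an interval of -0.09 to 0.13. Of the factors that passed, IRF7 changed by 3.86 ± 0.17 (limma adjusted p = 1.25e-08), IRF9 by 1.34 ± 0.20 (limma adjusted p = 0.00025) and IRF1 by 1.02 ± 0.16 (limma adjusted p = 0.000294). The antisense neighbour of IRF1, C5orf56, was higher too, at 8.6 and 12 FPKM against 2.8 and 2.72 FPKM (log2 change 1.71), and its share in the IRF1 value was not tested.

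In cisplatin the same 7 genes were called in the same directions, 6 higher and 1 lower, where 23% of all tested genes were higher and 19.4% lower. IRF7 was 11-fold higher, IFIH1 8.01-fold, DHX58 7.38-fold, IRF9 3.2-fold, TLR3 2.24-fold and IRF1 2.23-fold, and MAVS fell to 0.721 of its level. Each of these 14 calls, in solvent and in cisplatin, was also made under every alternative tried, including leaving out any single library. Of the 6 epithelial markers, 4 were higher and 1 lower with the control gapmer than without transfection in solvent. In cisplatin 5 were higher and 0 lower. CDH1 averaged 5.47 against 2.92 FPKM in solvent, while KRT19 was lower at 134 against 164 FPKM. The part of these differences in the result was not tested.

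Other genes of the pathway, from lists chosen by function, are given in solvent, where 20.7% of all tested genes rose and 19% fell. Of 16 other sensors tested (20 listed), 14 rose and 1 fell. This list, called other sensors throughout, also holds genes that are not sensors themselves, such as ADAR, TREX1, SAMHD1 and NLRX1. On the 8 untransfected libraries alone 14 of the 16 would have passed the filter, of which 12 rose, and OAS2 and ZBP1 passed only through the transfected libraries. The largest rises were those of the oligoadenylate synthetases, which make the activator of RNase L, with OAS2 at 76.8 FPKM against 0.13 FPKM, OAS1 at 294 against 12.7 FPKM and OAS3 at 583 against 44.9 FPKM, and of OASL at 54.4 against 1.51 FPKM. The gene of this list that fell was NLRX1, a mitochondrial NOD-like protein, at 12.7 FPKM against 14.5 FPKM. Interferon-stimulated genes rose in 25 of 25 tested (26 listed), with a median log2 change of 3.98, led by IFI27 at 225 against 1.01 FPKM, RSAD2 at 98.9 against 0.342 FPKM, IFI6 at 1530 against 14.2 FPKM and IFIT1 at 177 against 1.28 FPKM. Of these 25, 20 would have passed the filter on the 8 untransfected libraries alone, and all 20 rose.

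The interferon genes themselves were low. IFNL1 averaged 1.61 FPKM, IFNL2 1.43 FPKM and IFNL3 1.4 FPKM with the control gapmer, and all 3 were listed at 0 in both untransfected libraries in solvent. IFNB1, interferon beta, stood at 0.594 and 0.54 FPKM, against 0.15 and 0.0701 FPKM (log2 change 0.81, limma adjusted p = 0.0247). IFNE, interferon epsilon, fell to 2.04 FPKM, against 3.18 FPKM (limma adjusted p = 0.00208). Of 9 interferon genes listed 5 were tested, and of those only IFNE would have passed the filter without the transfected libraries.

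Receptors and relay proteins moved less. Of 12 receptor and JAK-STAT genes 4 rose and 3 fell, not far from the 20.7% and 19% over all tested genes. STAT2, a partner of IRF9, was among the rises (125 against 28.9 FPKM). Among 17 adaptors and kinases tested (18 listed) 5 rose and 2 fell, also not far from the shares over all tested genes. MYD88, the adaptor of most Toll-like receptors, stood at 50.5 against 17.9 FPKM and TRIM25, a ubiquitin ligase acting on RIG-I, at 243 against 118 FPKM. The inhibitors rose in 5 of 7 tested (8 listed) and 1 fell, with USP18, which blocks interferon receptor signalling, at 40.1 against 3.44 FPKM. Of the other IRF genes 2 of 5 were tested, IRF2 (38.8 against 30.8 FPKM, higher) and IRF5 (10.7 against 13.2 FPKM, lower).

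**Figure D3:**
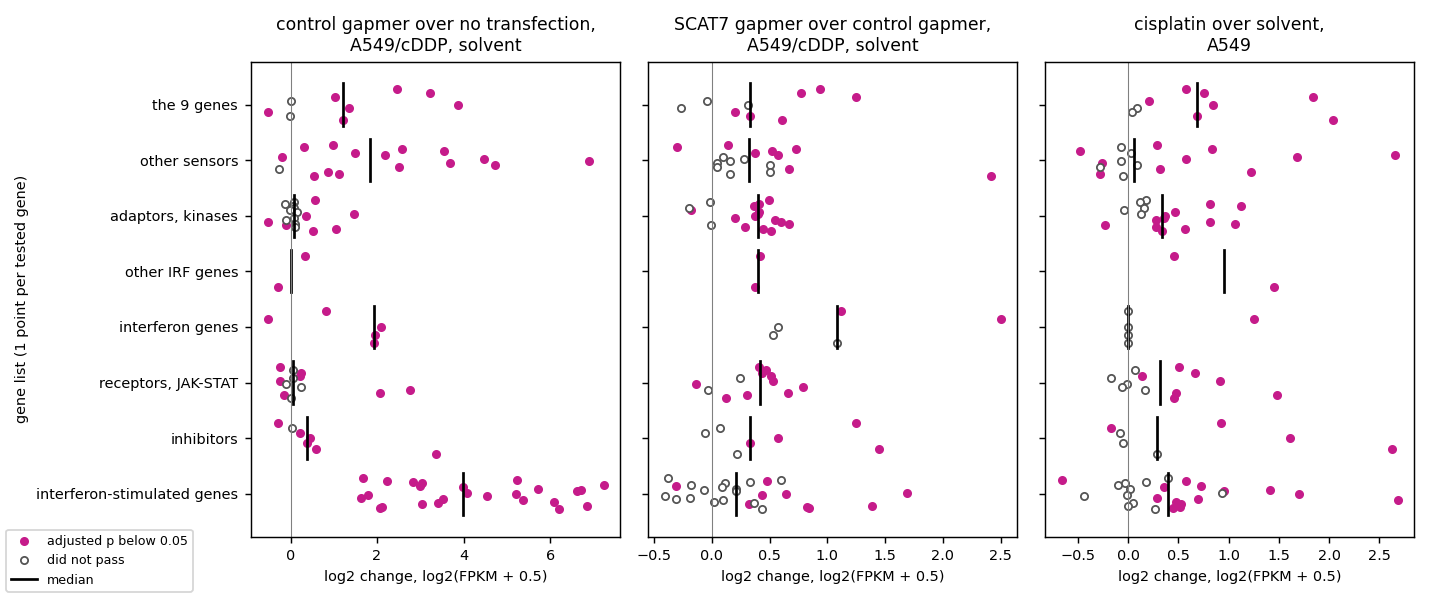
Change on the scale log2(FPKM + 0.5) of each tested gene in the 9-gene set and in 7 pathway lists, in 3 comparisons side by side, with filled points for limma adjusted p below 0.05, open points for genes that did not pass and a bar at the list median. With the control gapmer all 25 interferon-stimulated genes lie right of 0 with a median of 3.98, with the SCAT7 gapmer their median is 0.21, and with cisplatin in A549 it is 0.40.

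The SCAT7 gapmer against the control gapmer, both in solvent, compares transfected cells that differ in the gapmer. With a single gapmer against SCAT7, effects of the knockdown and of that oligonucleotide cannot be told apart. The sensors IFIH1, DHX58 and TLR3, the factor IRF1, the kinase TBK1 and the adaptor MAVS rose, 6 of the 9, where 33.2% of all tested genes rose and 22.7% fell. IRF1 changed most, at 120 ± 25.2 FPKM with the SCAT7 gapmer and 50 ± 6.62 FPKM with the control gapmer (SD, n = 2 each), a 2.41-fold rise (log2 change 1.25 ± 0.16, limma adjusted p = 2.86e-05). C5orf56, the antisense neighbour of IRF1, stood at 19.3 and 12.8 FPKM, against 8.6 and 12 FPKM. Its share in the IRF1 value was not tested. The median log2 change of the 9 was 0.33, against 0.06 over all tested genes. These comparisons use the control gapmer libraries that were set against untransfected cells above, so a low control library raises the value here and lowers it there.

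DHX58 rose 1.96-fold (log2 change 0.94 ± 0.23, limma adjusted p = 0.00438), IFIH1 1.71-fold (0.77 ± 0.18, limma adjusted p = 0.00302) and TLR3 1.54-fold (0.61 ± 0.19, limma adjusted p = 0.0163). TBK1 rose 1.26-fold (0.33 ± 0.05, limma adjusted p = 0.000128) and MAVS 1.15-fold (0.20 ± 0.04, limma adjusted p = 0.000493). IRF7 (0.31, 95% interval -0.05 to 0.67, limma adjusted p = 0.136), IRF9 (-0.27, interval -0.72 to 0.18, limma adjusted p = 0.289) and IRF3 (-0.04, interval -0.15 to 0.07, limma adjusted p = 0.48) did not pass. IRF7 and IRF9, called with the control gapmer, thus had intervals that include 0 here.

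In cisplatin the same 6 genes were called higher, where 28.6% of all tested genes were higher and 21.1% lower. IRF1 was 2.03-fold higher (log2 change 0.99 ± 0.16), DHX58 1.93-fold, IFIH1 1.68-fold, TLR3 1.64-fold, TBK1 1.22-fold and MAVS 1.18-fold. C5orf56 stood at 14.7 and 10.3 FPKM, against 8.48 and 8.08 FPKM. IRF9 stood at 2.67 and 3.17 FPKM, against 3.83 and 4.76 FPKM (log2 change -0.49, limma adjusted p = 0.0675). It was called lower under quantile normalization (-0.65, limma adjusted p = 0.0156) and under median ratio scaling (-0.53, limma adjusted p = 0.0491).

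The sensor calls rest on single libraries in part. In cisplatin without replicate 1 of the SCAT7 gapmer, the changes came to 0.45 for IFIH1, 0.51 for DHX58 and 0.47 for TLR3 and none passed (limma adjusted p = 0.0683, 0.102 and 0.109), and without replicate 1 of the control gapmer TLR3 did not pass (0.60, limma adjusted p = 0.0711). In solvent DHX58 and TLR3 did not pass without replicate 1 of the SCAT7 gapmer (0.72 and 0.41) or without replicate 1 of the control gapmer (0.69 and 0.32), and TLR3 did not pass with only the libraries compared in the fit (limma adjusted p = 0.0644). IRF1, TBK1 and MAVS were called in every such fit. The SCAT7 gapmer libraries were also the shallower ones, as given above. In solvent and in cisplatin, 5 of 6 epithelial markers were lower with the SCAT7 gapmer than with the control gapmer. Most of these markers were higher with the control gapmer than without transfection, as given above. The part of depth, of these markers and of the replicate differences in the results was not tested.

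The other pathway genes in solvent showed 7 of 16 other sensors higher and 1 lower (CGAS, the cytosolic DNA sensor, at 11.3 against 14.1 FPKM). Over all tested genes 33.2% rose and 22.7% fell. ZBP1, a sensor of Z-form nucleic acid, stood at 4.28 and 3.09 FPKM with the SCAT7 gapmer, against 0.188 and 0.376 FPKM with the control gapmer. ZBP1 is counted among the 7 but passed the filter only through the SCAT7 gapmer libraries, so its call is no separate support. DDX58 stood at 129 against 77.6 FPKM, TLR4 at 1.59 against 0.814 FPKM and IFI16 at 29.2 against 19.5 FPKM. Adaptors and kinases rose in 13 of 17 and fell in 1 (IRAK1, 97.6 against 110 FPKM), with TICAM1, the adaptor of TLR3, at 9.77 against 5.93 FPKM and the TBK1-binding protein genes TANK at 90.6 against 62 FPKM and TBKBP1 at 23.1 against 15.1 FPKM. IRF2 and IRF5 rose, at 52.2 against 38.8 FPKM and 14 against 10.7 FPKM.

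Of 25 interferon-stimulated genes 8 rose and 1 fell (IFI35, 370 against 458 FPKM), a share of rises near the 33.2% over all tested genes. The largest rises were IFIT2, at 189 and 84.4 FPKM against 29.6 and 51 FPKM, and RSAD2, at a mean of 263 against 98.9 FPKM. IFNE rose to 14.6 and 13.3 FPKM with the SCAT7 gapmer, against 2.17 and 1.92 FPKM with the control gapmer (log2 change 2.50, limma adjusted p = 3.62e-09), and IFNB1 to 2.38 and 1.36 FPKM, against 0.594 and 0.54 FPKM (1.12, limma adjusted p = 0.00264). IFNB1 passed the filter only through the SCAT7 gapmer libraries, so its call is no separate support. STAT2 (198 against 125 FPKM) and JAK2 (14.4 against 8.09 FPKM) were among 9 of 12 receptor and JAK-STAT genes that rose, with JAK1 (270 against 297 FPKM) lower. Of the inhibitors 4 of 7 rose, led by the NF-kB inhibitors TNFAIP3, at 164 against 59.7 FPKM, and CYLD, at 33.3 against 13.7 FPKM.

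Cisplatin in the parental line A549 raised TLR3, IRF1, IRF7, IFIH1, TBK1, DHX58 and IRF3. These are 7 of the 9 genes, none fell, and 33.3% of all tested genes rose and 27.1% fell. TLR3 and IRF1 led, at 6.73-fold and 3.68-fold. The median log2 change of the 9 was 0.69, against 0.06 over all tested genes. CDKN1A, the p53 target used as a check of the drug, stood at 1620 FPKM in cisplatin and 84.2 FPKM in solvent.

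TLR3 averaged 3.96 FPKM in cisplatin and 0.588 FPKM in solvent, a log2 change of 2.04 ± 0.19 (limma adjusted p = 1.22e-06). IFIH1 rose 1.98-fold (0.76 ± 0.18, limma adjusted p = 0.00277). DHX58 averaged 0.502 ± 0.119 FPKM in cisplatin and 0.167 ± 0.0426 FPKM in solvent (0.58 ± 0.23, limma adjusted p = 0.0467). This call of DHX58 ended at a pseudocount of 1 (0.36, limma adjusted p = 0.168), without a filter (limma adjusted p = 0.128), under quantile normalization (limma adjusted p = 0.142), with replicate number as a block (limma adjusted p = 0.0577) and whenever a library was left out. TBK1 rose 1.62-fold (0.69 ± 0.05, limma adjusted p = 1.06e-07), and MAVS did not pass (0.04, 95% interval -0.04 to 0.12).

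IRF1 averaged 42.1 FPKM in cisplatin and 11.4 FPKM in solvent (1.84 ± 0.16, limma adjusted p = 5.66e-07), and its antisense neighbour C5orf56 did not pass (1.27 against 0.854 FPKM, limma adjusted p = 0.151). IRF7 rose 1.98-fold (0.84 ± 0.17, limma adjusted p = 0.000793) and IRF3 1.16-fold (0.21 ± 0.05, limma adjusted p = 0.00341). IRF9 did not pass (0.09, 95% interval -0.35 to 0.54).

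Around them, 7 of 16 other sensors rose and 3 fell (DDX60, 2.57 against 3.86 FPKM, OAS3, 56.3 against 67.5 FPKM, and TREX1, 6.5 against 8.02 FPKM). Over all tested genes 33.3% rose and 27.1% fell. IFI16, a DNA sensor, stood at 8.93 and 8.75 FPKM in cisplatin, against 0.959 and 1.01 FPKM in solvent, and NLRX1 at 34 and 32.5 FPKM, against 9.75 and 10.4 FPKM. Among adaptors and kinases 11 of 17 rose and 1 fell (TRAF3, 26.6 against 31.3 FPKM), led by IKBKE, the kinase most like TBK1, at 17.9 against 7.95 FPKM, and TICAM1 at 8.26 against 3.69 FPKM. IRF5 (23.6 against 8.32 FPKM) and IRF2 (28 against 20.3 FPKM) rose. Interferon-stimulated genes rose in 13 of 25, with ISG15 at 31.5 and 37.1 FPKM against 5.28 and 4.58 FPKM, and 1 fell (CMPK2, 0.257 against 0.692 FPKM). IFNB1 was listed at 0 in all 4 A549 libraries, and IFNE was the interferon gene that rose (3.36 against 1.12 FPKM). Of 12 receptor and JAK-STAT genes 7 rose, led by STAT3 at 321 against 115 FPKM, and of 7 inhibitors 3 rose and 1 fell, with TNFAIP3 at 28.1 against 4.14 FPKM.

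In A549/cDDP without transfection, cisplatin against solvent gave no call for any of the 9 genes in limma, also at an unadjusted p below 0.05, where 8.1% of all tested genes were called. The changes of TLR3 (0.01, 95% interval -0.41 to 0.42), TBK1 (-0.01, interval -0.12 to 0.10) and IRF1 (-0.09, interval -0.43 to 0.26) had intervals below their rises in A549. CDKN1A averaged 709 FPKM in cisplatin and 577 FPKM in solvent.

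The difference between these responses, A549/cDDP minus A549, was tested as an interaction and was called lower for 4 of the 9 genes, where 25.6% of all tested genes were called lower and 21.5% higher. It was -2.03 ± 0.27 for TLR3 (limma adjusted p = 5.18e-05), -1.93 ± 0.22 for IRF1 (limma adjusted p = 1.73e-05), -0.70 ± 0.07 for TBK1 (limma adjusted p = 4.63e-06) and -0.74 ± 0.26 for IFIH1 (limma adjusted p = 0.0319). The call for IFIH1 ended at a pseudocount of 1, without a filter, under quantile normalization and without any single library of these 4 groups other than replicate 1 of A549 in solvent (values from -0.76 to -0.51). DHX58 (-0.74, limma adjusted p = 0.0848) was called at a pseudocount of 0.1 (-1.38, limma adjusted p = 0.00988) and with only the libraries compared (limma adjusted p = 0.0346). IRF7 (-0.50, 95% interval -1.01 to 0.01) was called without replicate 2 of A549/cDDP in cisplatin (-0.74, limma adjusted p = 0.0178) and without replicate 2 of A549 in solvent (-0.67, limma adjusted p = 0.0476). The intervals of IRF3, MAVS and IRF9 held 0. In the 7 pathway lists TRAF3 was the only gene called higher (0.20, limma adjusted p = 0.00336), while 5 of 16 other sensors, 8 of 17 adaptors and kinases and 10 of 25 interferon-stimulated genes were called lower.

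With a gapmer present, cisplatin against solvent again called none of the 9 genes in limma, where with the control gapmer 2.53% of all tested genes were called, and with the SCAT7 gapmer 4.18%. At an unadjusted p below 0.05 the control gapmer gave none and the SCAT7 gapmer 1, IRF3 (0.12, limma adjusted p = 0.194). IRF3 passed there when replicate 2 of the SCAT7 gapmer in cisplatin was left out (0.20, limma adjusted p = 0.0271). The effect of the SCAT7 gapmer did not differ detectably between cisplatin and solvent for any of the 9 in limma, with none at an unadjusted p below 0.05 and 0.93% of all tested genes called. The interval of this difference was -0.74 to 0.23 for IRF1 and -0.61 to 0.50 for IFIH1, so differences of that size could not be seen with 2 libraries per group.

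A549/cDDP against A549, both in solvent, compares the lines themselves. IFIH1, TLR3, DHX58, IRF1, IRF7, MAVS and TBK1 were higher in A549/cDDP and IRF3 was lower, 7 and 1 of the 9, where 42.7% of all tested genes were higher and 27.5% lower. IFIH1 was 7.52-fold higher (log2 change 2.50 ± 0.18, limma adjusted p = 8.64e-08), TLR3 5.83-fold (1.85 ± 0.19, limma adjusted p = 2.3e-06) and IRF1 2.13-fold (1.06 ± 0.16, limma adjusted p = 6.24e-05). C5orf56, the antisense neighbour of IRF1, stood at 2.8 and 2.72 FPKM in A549/cDDP, against 0.7 and 1.01 FPKM in A549. Its share in the IRF1 value was not tested. DHX58 was 7.66-fold higher (1.42 ± 0.23) and IRF7 1.85-fold higher (0.76 ± 0.17), while IRF3 was 0.861 of its level in A549 (log2 change -0.22 ± 0.05, limma adjusted p = 0.00218). Between the same groups 5 of 6 epithelial markers were lower, with CDH1 at 3.02 and 2.83 FPKM in A549/cDDP against 14.5 and 14.5 FPKM in A549, and the fibroblast marker COL1A1 was higher. The part of these differences in the result was not tested.

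The smaller differences in this comparison depend on scaling. The median of all tested genes was 0.15 higher in A549/cDDP with the deposited scaling and -0.01 under median ratio scaling. MAVS at 0.24 and TBK1 at 0.15 lie near that shift. Under median ratio scaling MAVS came to 0.06 (limma adjusted p = 0.19) and TBK1 to -0.03 (limma adjusted p = 0.585), and of all calls 47.4% were higher, against 60.8% as deposited. TBK1 also did not pass without replicate 2 of A549/cDDP (limma adjusted p = 0.077) or replicate 1 of A549 (limma adjusted p = 0.0581). IRF9 (0.38, limma adjusted p = 0.118) was called without either of these 2 libraries (0.60 and 0.59, limma adjusted p = 0.0416 and 0.0494).

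In cisplatin IFIH1, DHX58 and MAVS were higher in A549/cDDP and IRF1, TBK1 and IRF3 lower. These are 3 and 3 of the 9 genes, near the 37% higher and 29.5% lower over all tested genes. The median log2 change of the 9 was 0.12, against 0.08 over all tested genes. IFIH1 was 3.89-fold higher (1.76 ± 0.18). IRF1 stood at 23.2 and 22.7 FPKM in A549/cDDP, against 41.8 and 42.4 FPKM in A549 (-0.86 ± 0.16, limma adjusted p = 0.000376), and TBK1 at 70.8 and 65.1 FPKM, against 101 and 97.8 FPKM (-0.55 ± 0.05, limma adjusted p = 8.07e-07). C5orf56 went the other way from IRF1, at 2.34 and 2.45 FPKM in A549/cDDP against 1.04 and 1.51 FPKM in A549. The comparisons of the lines in solvent and in cisplatin and those of cisplatin within each line share the same 8 libraries. DHX58 (0.67, limma adjusted p = 0.0228) did not pass at a pseudocount of 1, without a filter, under quantile normalization or without replicate 1 of A549 or replicate 2 of A549/cDDP, and MAVS (0.16) did not pass under median ratio scaling (0.05, limma adjusted p = 0.242). IRF7 (0.26) passed only without replicate 1 of A549/cDDP (0.50, limma adjusted p = 0.0239).

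Among other pathway genes in solvent, DDX58 stood at 12.4 and 12.5 FPKM in A549/cDDP, against 1.93 and 1.87 FPKM in A549, a log2 change of 2.43 beside 2.50 for IFIH1. Of the other sensors 8 of 16 were higher and 3 lower, near the 42.7% and 27.5% over all tested genes, with OAS1 lower, at 12.7 against 33.7 FPKM, and IFI16 higher, at 3.85 against 0.986 FPKM. Interferon-stimulated genes were higher in 16 of 25 and lower in 1 (IFITM2, 15.2 against 19.4 FPKM), led by BST2, a protein that tethers budding virus, at 24.9 against 0.602 FPKM and IFI44 at 10.6 against 0.0481 FPKM.

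**Figure D4:**
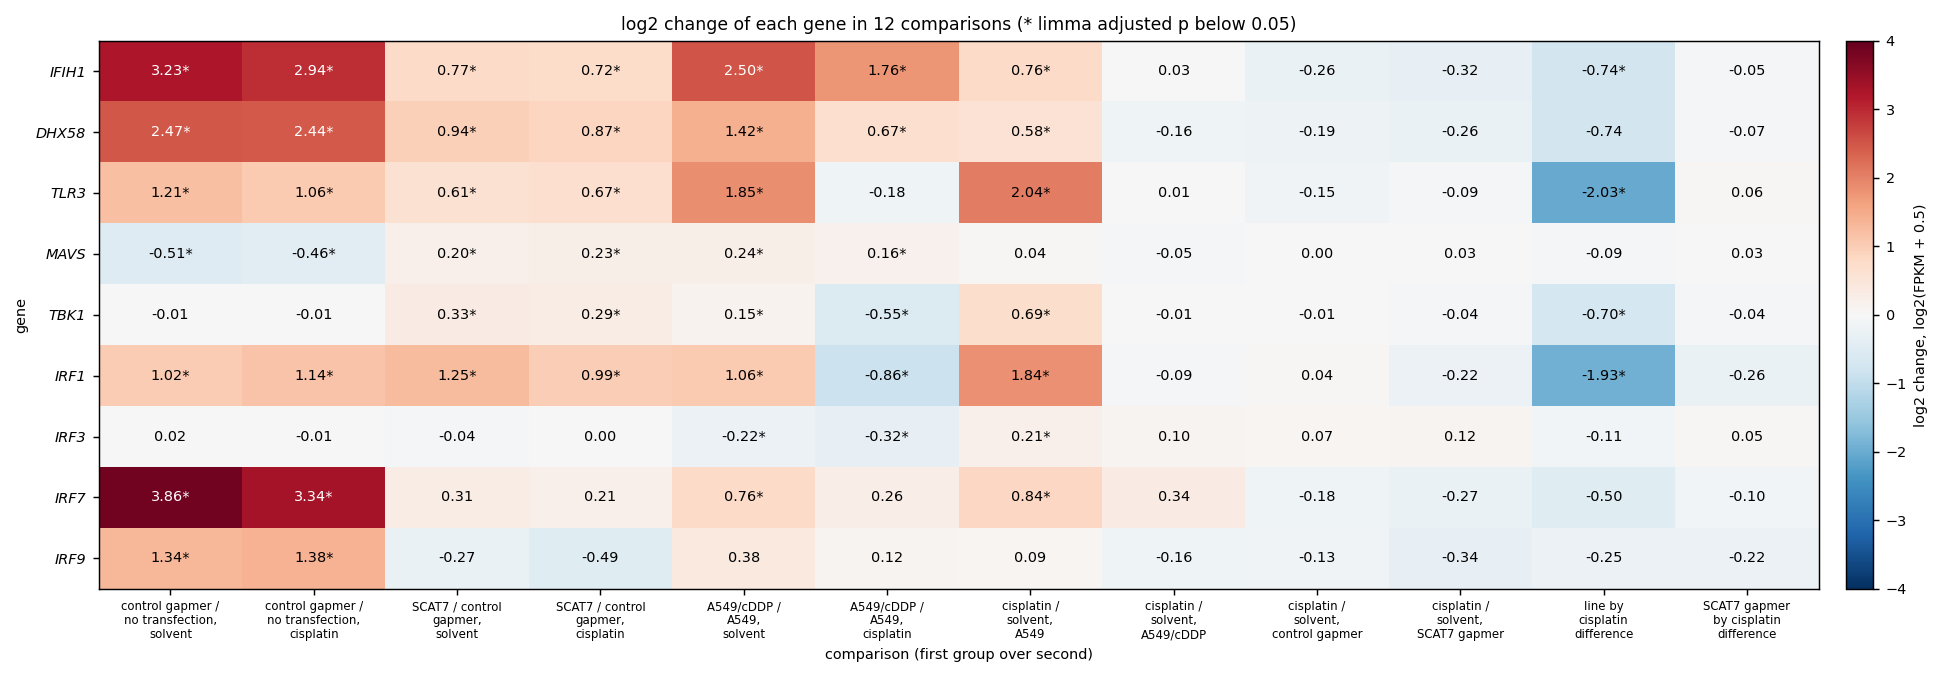
Change on the scale log2(FPKM + 0.5) of each of the 9 genes (rows) in the 10 comparisons of 2 groups and 2 differences of effects (columns, first group over second), with an asterisk for limma adjusted p below 0.05. The control gapmer columns hold the largest values (3.86 for IRF7), the 3 columns of cisplatin in A549/cDDP hold no asterisk, and MAVS is the only gene below 0 with the control gapmer at that threshold.

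Over the 10 comparisons of 2 groups, the genes separate by how often they were called. IFIH1 and DHX58 were called higher in 7 and lower in none, TLR3 and IRF1 higher in 6, and IRF1 lower in 1. IRF7 was higher in 4 and IRF9 in 2. MAVS was higher in 4 and lower in 2, TBK1 higher in 4 and lower in 1, and IRF3 higher in 1 and lower in 2. These comparisons share libraries, so the counts describe patterns and are not separate trials.

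The genes most alike to each were sought by Pearson's r over the 8 group means on the log2 scale, among 10500 genes averaging 5 FPKM or more, as a description over 8 points that share libraries. IFIH1 was nearest to DDX58 (r = 0.9992) and DDX60L (0.9978), DHX58 to DTX3L (0.9971) and STAT2 (0.9967), and TLR3 to APOL2 (0.9971) and BTN3A1 (0.9969). IRF1 was nearest to TRAFD1 (0.9932) and ZNFX1 (0.9912), and IRF7 to RASGRP3 and B2M (both 0.9979). IRF9 was nearest to TMEM41A (0.9798) and AP001610.1 (0.9752), TBK1 to SLC25A30 (0.9837) and RHCG (0.9833), IRF3 to SMIM6 (0.9875) and SLC25A4 (0.9863), and MAVS to SWI5 (0.9567) and NUDT16L1 (0.9548). The nearest genes of IRF9, TBK1, IRF3 and MAVS stood less close than those of IFIH1, DHX58, TLR3, IRF1 and IRF7.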

How the data were processed

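RNA-seq was run on 16 libraries in 8 groups of 2. Per the submitters' processing notes, the authors used TopHat2 and HTSeq 0.6.1 with build hg38, and they deposited FPKM. The annotation release and strand setting are not given in the sources used here. Symbols, positions and exon lengths came from GENCODE 29. No read counts were used; depth was estimated from low FPKM, of which 67.6% to 73% were whole reads at a tolerance of 0.02 reads, so fragment numbers are approximate.

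Genes averaging 0.5 FPKM or more (17198) were tested on log2(FPKM + 0.5) with limma 3.58.1 (R 4.3.3), trended prior, 1 mean per group, 8 residual degrees of freedom, two-sided, with Benjamini-Hochberg adjustment and a threshold of 0.05, in 12 comparisons. The fit was tested on simulated data. Groups came from the labels. The labels name no target for the knockdown gapmer, and SCAT7 as its target was taken from the submitters' description of the design.

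The 9 genes and the pathway lists were chosen with earlier results of these data known. Named were the 9 genes, up to 4 called genes with the largest change per list and comparison, the 2 most alike genes, ELF3-AS1 and CDKN1A; single falling list genes and overlapping genes were named after their values were seen. SCAT7 was matched to ELF3-AS1 through a RefSeq synonym. Alternatives were other pseudocounts (0.1 and 1), filters (none, or a mean of 2 FPKM), quantile normalization, median ratio scaling, a fit of only the libraries compared, replicate number as a block and leaving out each library. Same-numbered libraries correlated at -0.19 to 0.12 in their deviations over 28 pairs of groups, and the main fit used no pairing. This correlation is over all genes and cannot exclude pairing for some of them. In both SCAT7 gapmer groups replicate 1 was the higher for every interferon-stimulated gene tested. The values of 1 gene of the pathway lists are not reported here.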

Additional observations from a re-analysis of the deposited data

Results flagged for a closer look

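The response to cisplatin of 4 of the 9 genes differed between A549/cDDP and A549 by the test of the difference itself. For IFIH1 the call ended at a pseudocount of 1, without a filter and under quantile normalization. It also ended without any single library of these groups other than replicate 1 of A549 in solvent. The difference in log2 change, A549/cDDP minus A549, was -2.03 for TLR3, -1.93 for IRF1, -0.70 for TBK1 and -0.74 for IFIH1. In A549/cDDP these genes stood in solvent at or above the level of A549 in solvent, and A549/cDDP was kept in cisplatin medium between experiments, per the labels. The part of either in the difference was not tested, and the medium cannot be told apart from the line. Of all genes tested, 25.6% were called lower in this test.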

How the results depend on the processing

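Depth limits the genes that are low in A549 in solvent, above all DHX58 (about 28 and 18 fragments). For the 9 genes, 846 of 864 results under other settings kept direction and side of the threshold, 13 lost a call, 4 gained one and 1 reversed. That was TBK1 between the lines in solvent, -0.03 under median ratio scaling. The cause was not tested. With a library left out, 475 of 504 held, 23 lost a call, 6 gained one and none reversed. Replicate number as a block changed 1 call, DHX58 with cisplatin in A549 (0.58, limma adjusted p = 0.0577). Counts over all genes moved by over 1.5 times when only the libraries compared were fitted, which leaves fewer samples: cisplatin called 417 genes in A549/cDDP (1393 in the full fit), 270 in control gapmer cells (435) and 0 in SCAT7 gapmer cells (719), and the SCAT7 by cisplatin difference 10 (160). Without a filter that difference gave 262. Leaving out 1 library gave 509 to 1049, 137 to 179, 9 to 1626 and 45 to 462 genes for these 4, in that order. Of the 9 genes it left 3 to 6 called for the SCAT7 gapmer in cisplatin, 0 to 1 for cisplatin with the SCAT7 gapmer, and 4 to 6 for the SCAT7 gapmer in solvent. The lowest of these came without replicate 1 of the SCAT7 gapmer, in solvent also without replicate 1 of the control gapmer. Of all calls, the share higher moved by over 10 percentage points with scaling. It was 59.4% as deposited and 49.2% under median ratio scaling for the SCAT7 gapmer in solvent, 66.2% and 53.8% for cisplatin with the control gapmer, and 54.3% as deposited and 43.9% under quantile normalization for the control gapmer in cisplatin. For cisplatin with the SCAT7 gapmer it was 69.8% as deposited and 59.4% under quantile normalization.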
